A study of Mus musculus with 16 samples.

Results

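The interferon-stimulated genes examined here are 35 genes picked by name for their known induction by interferons, and every row of the count table that carries one of these names was taken. They are 35 of the 40840 genes in the table. The list was drawn up with earlier results of these data known, so comparisons of its counts with those of all genes are descriptive. RNA was sequenced from p53−/−; Myc hepatoblasts, a line of mouse liver progenitor cells used as a model of hepatocellular carcinoma, in which the tumor suppressor p53 is knocked out and the Myc oncogene overexpressed. All 4 groups came from this line, with both alterations in each of them: DMSO (vehicle) for 48 hours, sorafenib for 48 hours, DMSO for 7 days and sorafenib for 7 days. Sorafenib is a multikinase inhibitor given to patients with hepatocellular carcinoma. Each group had 4 replicate libraries (n = 4 throughout), and the labels do not say whether these came from separate cultures, so p-values measure only the spread between these libraries, which may be technical. A single line carries all results, and no untransformed liver cell was included.

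Interferons are secreted proteins that cells release when sensors in the cytosol or in endosomes meet foreign or misplaced nucleic acid. Type I interferon binds the receptor chains Ifnar1 and Ifnar2, the kinases Jak1 and Tyk2 then activate a complex of STAT proteins with Irf9 that binds the interferon-stimulated response element in the promoters of its target genes. Type II interferon acts through Jak1 and Jak2 on another element, the gamma activated site. The induced genes encode sensors, nucleases, RNA-binding proteins and modifying enzymes that restrict viruses, and liver cells are able to mount this response.

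Total counts ranged from 16586254 to 30828427 per library (median 26360677), with the lowest totals among the sorafenib 48-hour libraries (16586254 to 27352812). Levels are normalized counts, that is the count divided by the library total and its TMM factor (edgeR's trimmed-mean scaling) and brought back to the mean library size. A value of 3 counts, taken as the floor under which a level is not told from stray reads, equalled 2.44 to 4.54 normalized counts depending on the library. In the sorafenib 48-hour replicate 2 library, genes from chr14:103350847 (Mycbp2) onward in genome order were lowered to 0.605 times the level before that place, relative to the mean of the other 3 replicates of the group. Of the members with enough counts for testing, 7 lie there (Ifit1, Ifit2, Ifit3, Parp9, Parp14, Dtx3l and Rtp4), and their 48-hour values are also given without this library. The hepatoblast label was met only in part by marker genes. Of 12 hepatoblast and hepatocyte genes, 3 had fewer than 10 counts in total, Alb and Hnf4a among them. Afp, Ttr and Apoa1 passed that limit but held at most 40, 12 and 10 counts in any group. The progenitor marker Dlk1 was at 32230.0 ± 841 (SD) with DMSO and 10440 ± 847 with sorafenib at 48 hours. At 7 days Dlk1 was at 16770 ± 807 with DMSO and 4020.0 ± 84.9 with sorafenib, so the DMSO level was lower there too. Sox9 and Foxa2 went the other way at 7 days, from 349.7 ± 18.4 to 904 ± 47.4 and from 480.1 ± 30.7 to 862 ± 11. With DMSO and sorafenib for 7 days, Krt8 was at 136.1 ± 10.9 and 63.47 ± 1.72, and Krt18 at 335.1 ± 29.5 and 177.3 ± 6.15. Epcam was at 18.32 ± 2.8 and 2.776 ± 1.58. Of those 12 genes, 9 could be tested, and 2 were higher and 4 lower with sorafenib at 48 hours, 2 higher and 6 lower at 7 days. All tested genes had shares of 26.9% higher and 27.7% lower at 48 hours, and 28.9% and 27.9% at 7 days.

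Immune cells carry high levels of many interferon-stimulated genes, and their markers were therefore looked at. Of 12 immune genes, 8 had fewer than 10 counts over all libraries, among them the defining markers Ptprc, Adgre1, Lyz2 and Cd3e. The summed level of the 12 genes was 75.5 to 89.0 normalized counts per library with DMSO and 61.9 to 89.8 with sorafenib at 48 hours, and 129 to 162 with DMSO and 77.6 to 93.4 with sorafenib at 7 days. Most of it was Cd68 and Csf1r, and none of the 4 testable genes was called by edgeR at 48 hours or had an unadjusted p under 0.05 there. At 7 days, Csf1r fell from 69.7 ± 10.4 to 13.8 ± 1.76 (log2 fold change −2.34 ± 0.23 SE, edgeR FDR 3.27e-08). Of 10 fibroblast and endothelial markers, 8 were tested, of which 1 was higher and 4 lower with sorafenib at 48 hours and 1 higher and 6 lower at 7 days. Here too, 26.9% of all tested genes were higher and 27.7% lower at 48 hours, and 28.9% and 27.9% at 7 days. The summed level of these markers fell from between 1480 and 1630 with DMSO to between 827 and 863 with sorafenib at 7 days. Among them, Pdgfra was at 1528 ± 23.3 with DMSO and 354.1 ± 26.5 with sorafenib at 48 hours, and at 729.1 ± 25.9 and 153.1 ± 12.6 at 7 days. The part of these marker changes in the results was not tested. In bulk RNA, fewer cells of a type and less RNA per cell cannot be told apart.

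Of the 35 members, 30 had at least 10 counts in total and entered the test, and these 30 also had at least 10 counts when the sorafenib 7-day libraries were left out. A gene was called when its FDR, the Benjamini-Hochberg adjusted p of edgeR's quasi-likelihood test over all 20444 tested genes, was under 0.05. The SE printed with a log2 fold change is its absolute value divided by the square root of the F of that test. For genes with few counts this SE can fall below counting error and so overstate the precision. After 48 hours, 16 of the 30 members were called between sorafenib and DMSO, 11 higher and 5 lower, where 54.6% of all tested genes were called, 26.9% higher and 27.7% lower. After 7 days, 27 were called, 24 higher and 3 lower, against 56.8% of all genes, 28.9% higher and 27.9% lower. The median log2 fold change of the members was 0.09 at 48 hours and 1.60 at 7 days, whereas that of all tested genes was −0.05 and 0.02. An increase of at least 2-fold was called for 7 members at 48 hours, where 8.83% of all genes had one, and for 18 members at 7 days, against 12.1% of all genes. A decrease of that size was called for 2 members at 48 hours and for none of the 30 at 7 days, where 9.22% and 8.43% of all genes had one.

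Counting libraries rather than fitted values gave like numbers. All 4 sorafenib libraries lay above all 4 DMSO libraries for 10 members and below them for 7 at 48 hours, where this held for 23.1% and 24.9% of all tested genes. At 7 days they lay above for 23 members and below for 3, against 28.5% and 28.4% of all genes. With 4 libraries against 4, a gene without overlap reaches 0.0286 in an exact two-sided permutation test, the smallest p this design allows.

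The difference between the responses at 48 hours and 7 days was itself tested as an interaction of treatment and time. It was called for 18 members, 15 with the higher response at 7 days and 3 with the lower one, against 36.8% of all genes (15.5% and 21.3%). For 12 members the response was at least 2-fold higher at 7 days and for 1 at least 2-fold lower, against 5.39% and 4.23% of all genes. By their calls at both times, 11 members were higher at both (Isg20, Ifit2, Ifit3, Bst2, Ifi35, Ifi44, Ifi27, Parp12, Trim25, Xaf1 and Lgals3bp), and 12 were not called at 48 hours and higher at 7 days (Irf7, Irf9, Isg15, Ifit1, Ifih1, Dhx58, Oasl1, Rsad2, Usp18, Cmpk2, Parp14 and Zbp1). Oasl2 was lower at 48 hours and higher at 7 days. Stat2 and Irf1 were lower at both times, Samd9l at 7 days, and Dtx3l and Rtp4 at 48 hours. Parp9 was called at neither time, and Oas1a, Oas2, Oas3, Mx1 and Mx2 had too few counts.

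**Figure D1:**
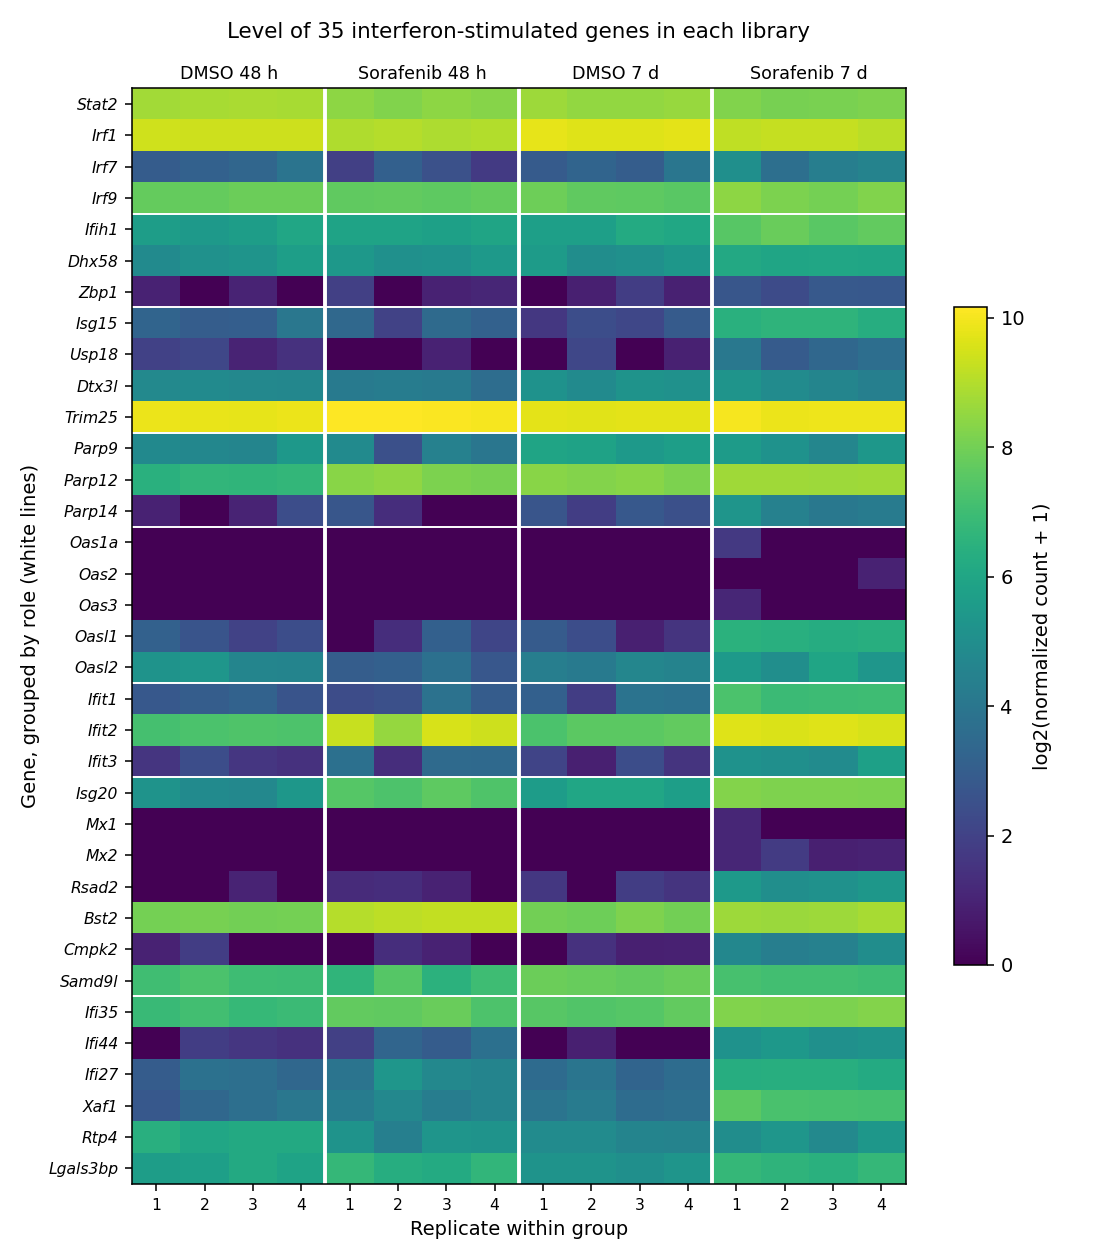
Level of the 35 members (rows, grouped by role) in the 16 libraries (columns, 4 per group), as log2 of the normalized count plus 1. The sorafenib 7-day columns are brighter than the other 12 for Isg15, Oasl1, Ifit1, Rsad2, Cmpk2 and Xaf1, while Irf1 and Stat2 are darker with sorafenib than with DMSO at the same time, and the rows of Oas1a, Oas2, Oas3, Mx1 and Mx2 are at or close to 0.

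**Figure D2:**
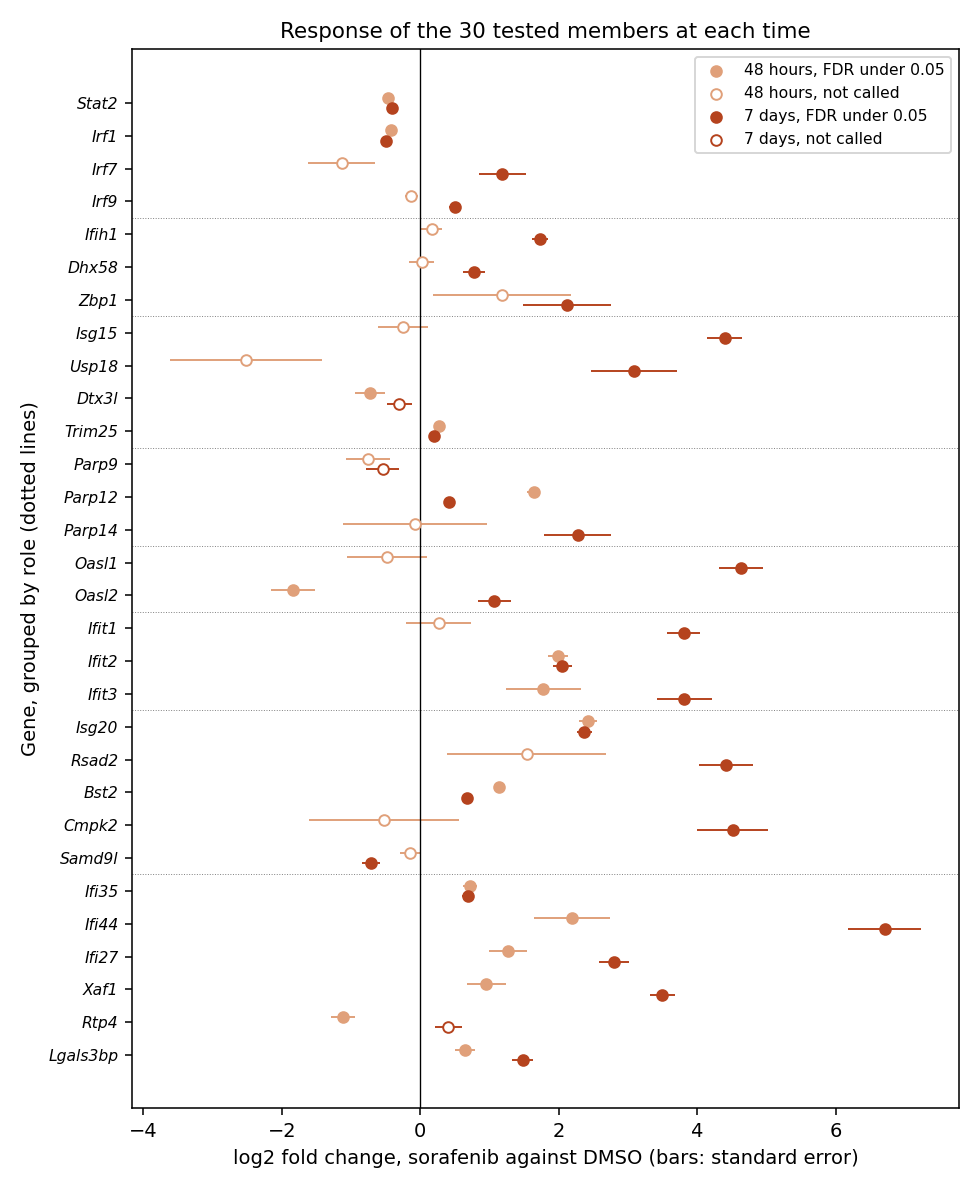
Log2 fold change of sorafenib against DMSO for the 30 tested members at 48 hours (light) and 7 days (dark), with bars for the SE derived from the F of the test. Filled points passed an FDR under 0.05, 16 at 48 hours and 27 at 7 days, and 18 of the dark ones lie right of 1 while the light ones spread on both sides of 0.

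Since many members moved together at 7 days, the sequence before their start sites is shown. Promoter windows of 250 bases before to 50 bases after the start, from RefSeq (table on build GRCm38.p6), were found for 25 of the 35 members. The response element was searched as GAAANNGAAA on the strand of the gene or TTTCNNTTTC, the same letters read on the opposite strand, with overlapping matches kept. It was present in 9 of the 25 members (36%) and in 1079 of 27025 genes in the table (3.99%). The gamma activated site, searched as TTCNNNGAA, which reads alike on both strands, was present in 6 of the 25 (24%) and in 9.55% of all genes. The response element was matched in Rsad2, Isg15, Ifit3, Ifit1, Ifih1, Bst2, Stat2, Oas3 and Oas1a, and the gamma activated site in Irf1, Isg20, Ifit2, Ifi35, Bst2 and Oas1a, where the matches of both elements in Bst2 share bases. A match of letters describes the sequence and does not show that a factor binds there.

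The 6 testable members with a match and the largest absolute change at 7 days are printed first, 5′ to 3′ on the strand of the gene, with matches of the response element in capitals, and 2 strongly increased members with no match in the window follow for comparison. Bases that lie inside the annotated gene are left out, except in Ifih1, whose match lies after the start and of which 30 bases are shown. Coordinates are those of the exact and single match of each piece in GRCm39.
Rsad2 (chr12:26506452-26506651, minus strand): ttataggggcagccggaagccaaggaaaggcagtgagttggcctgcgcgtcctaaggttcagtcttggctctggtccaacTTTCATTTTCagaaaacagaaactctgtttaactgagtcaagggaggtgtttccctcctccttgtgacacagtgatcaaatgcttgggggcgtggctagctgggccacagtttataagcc
Isg15 (chr4:156285304-156285475, minus strand): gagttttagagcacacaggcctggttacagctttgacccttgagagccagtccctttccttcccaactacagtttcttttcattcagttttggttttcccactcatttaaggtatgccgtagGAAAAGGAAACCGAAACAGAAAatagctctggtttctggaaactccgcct
Ifit3 (chr19:34560729-34560898, plus strand): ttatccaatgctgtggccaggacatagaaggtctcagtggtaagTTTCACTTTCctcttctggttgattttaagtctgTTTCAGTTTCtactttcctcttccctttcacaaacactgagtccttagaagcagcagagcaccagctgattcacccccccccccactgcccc
Ifit1 (chr19:34618089-34618270, plus strand): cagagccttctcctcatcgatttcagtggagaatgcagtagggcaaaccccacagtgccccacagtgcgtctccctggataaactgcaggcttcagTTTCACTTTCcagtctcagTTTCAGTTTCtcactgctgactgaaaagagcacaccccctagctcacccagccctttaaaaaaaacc
Ifih1 (chr2:62476550-62476579, minus strand): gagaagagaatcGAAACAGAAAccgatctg
Bst2 (chr8:71990117-71990316, minus strand): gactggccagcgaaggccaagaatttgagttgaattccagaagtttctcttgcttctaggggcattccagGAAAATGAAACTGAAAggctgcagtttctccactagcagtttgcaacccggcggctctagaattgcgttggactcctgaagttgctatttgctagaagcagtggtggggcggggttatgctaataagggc
Ifi44, no match (chr3:151455626-151455747, minus strand): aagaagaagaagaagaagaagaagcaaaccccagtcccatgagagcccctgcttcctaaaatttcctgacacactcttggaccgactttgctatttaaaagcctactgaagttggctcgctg
Oasl1, no match (chr5:115061099-115061293, plus strand): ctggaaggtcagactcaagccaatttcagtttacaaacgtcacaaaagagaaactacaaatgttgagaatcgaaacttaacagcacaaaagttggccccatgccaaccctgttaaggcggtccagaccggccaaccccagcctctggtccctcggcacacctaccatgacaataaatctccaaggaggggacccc

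In Isg15, 3 overlapping matches formed an unbroken run of 22 bases between 78 and 57 bases before the start. Ifit3 and Ifit1 held 2 separate matches each, all read on the opposite strand. Members with a match ranged in log2 fold change at 7 days from 4.41 for Rsad2 to −0.41 for Stat2, and Ifi44 and Oasl1 without one were among the largest increases.

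**Figure D3:**
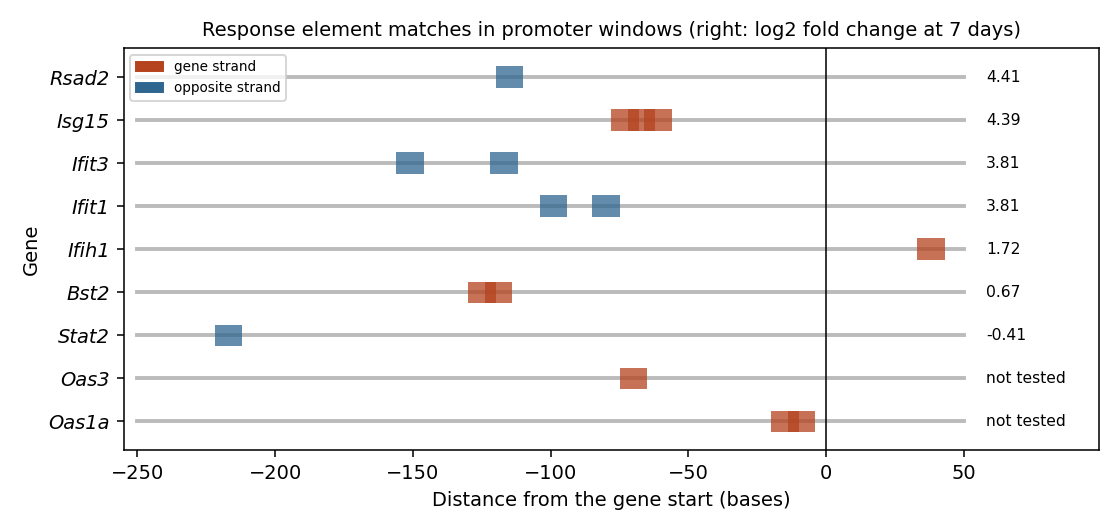
Positions of response element matches in the promoter windows of the 9 members that hold one, in bases from the gene start (vertical line), with boxes for the strand of the gene and for the opposite strand and the log2 fold change at 7 days at the right. Matches of Isg15, Bst2 and Oas1a overlap, that of Ifih1 lies after the start, and 2 of the 9 members, Oas3 and Oas1a, had too few counts for a test.

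The factors of the pathway moved in opposite directions. Stat2, a subunit of the complex activated by type I interferon, had normalized counts of 427, 461, 473 and 459 with DMSO and 347, 299, 346 and 316 with sorafenib at 48 hours. Stat2 reached 412, 369, 361 and 385 with DMSO and 304, 273, 279 and 293 with sorafenib in the 7-day groups. All sorafenib libraries lay below the DMSO libraries of their time, and Stat2 was lower after 48 hours (log2 fold change −0.47 ± 0.06 SE, edgeR FDR 1.78e-06) and after 7 days (log2 fold change −0.41 ± 0.06 SE, edgeR FDR 9.99e-06). Irf9, the DNA-binding subunit of the same complex, stood at 216, 216, 236 and 236 with DMSO and 205, 209, 199 and 215 with sorafenib at 48 hours. Irf9 stood at 244, 205, 200.3 and 186 with DMSO and 341, 286, 261 and 297 with sorafenib at 7 days. At 7 days the sorafenib libraries were above all others, a 1.42-fold increase (log2 fold change 0.50 ± 0.09 SE, edgeR FDR 3.72e-05), and at 48 hours the difference was not called although the libraries did not overlap (log2 fold change −0.13 ± 0.09 SE, edgeR FDR 0.249). Irf9 shares 282 exon bases with Rnf31 on the same strand, so part of its reads could have been assigned either way.

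Irf1, a factor induced mainly by type II interferon, was among the members with the highest counts, with 683, 663, 675 and 665 with DMSO and 492, 516, 484 and 509 with sorafenib at 48 hours. For Irf1, 7 days gave 889.8, 814, 801 and 862 with DMSO and 577, 621, 619 and 554 with sorafenib. It was lower with sorafenib at both times, without overlap (log2 fold change −0.43 ± 0.05 SE, edgeR FDR 3.42e-07 at 48 hours and log2 fold change −0.50 ± 0.05 SE, edgeR FDR 1.33e-08 at 7 days), and within each treatment it was higher at 7 days than at 48 hours. Irf1 shares 1024 exon bases with genes on the opposite strand. Irf7, which amplifies the production of type I interferon, was scarce, at 6.84, 7.81, 9.19 and 13.8 with DMSO and 2.81, 7.56, 4.76 and 2.27 with sorafenib at 48 hours. At 7 days, 6.49, 8.57, 6.91 and 14.8 were found with DMSO and 32.6, 12.2, 19.2 and 22.6 with sorafenib. The sorafenib 7-day libraries spread from 12.2 to 32.6, and the lowest of them lay below the highest DMSO library of that time. Irf7 rose 2.27-fold at 7 days (log2 fold change 1.18 ± 0.34 SE, edgeR FDR 0.00541) and was not called at 48 hours (log2 fold change −1.14 ± 0.49 SE, edgeR FDR 0.0552), where 9 of 24 alternative fits called it lower. Of the 4 factors, Irf9 and Irf7 thus rose at 7 days, and both responses differed from those at 48 hours (log2 fold change 0.63 ± 0.12 SE, edgeR FDR 0.000399 for Irf9 and log2 fold change 2.32 ± 0.59 SE, edgeR FDR 0.00379 for Irf7).

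The RNA sensors rose after the long exposure. Ifih1, or MDA5, which detects long double-stranded RNA and carries the response element 33 bases after its start, had 49.9, 44.2, 49 and 63.1 with DMSO and 58.9, 59, 54.2 and 60.2 with sorafenib at 48 hours. Ifih1 reached 53, 52.2, 73.4 and 65.8 with DMSO and 183, 227, 189.8 and 209.5 with sorafenib in the 7-day groups. The sorafenib 7-day libraries lay at 183 or more, and no other library passed 73.4. That was a 3.30-fold increase at 7 days (log2 fold change 1.72 ± 0.11 SE, edgeR FDR 6.43e-11), whereas the groups overlapped at 48 hours (log2 fold change 0.16 ± 0.15 SE, edgeR FDR 0.382). Dhx58, or LGP2, a helicase that modulates MDA5, ranged from 62.0 to 69.7 in the sorafenib 7-day libraries and from 28.4 to 51.0 in all others, and rose 1.71-fold at 7 days (log2 fold change 0.77 ± 0.16 SE, edgeR FDR 0.000334); part of its exons overlaps an antisense gene. Zbp1, a sensor of Z-form nucleic acid that can start necroptosis, was close to the floor, with 0.978, 0, 1.02 and 0 with DMSO and 2.81, 0, 0.952 and 1.14 with sorafenib at 48 hours. Zbp1 stood at 0, 0.857, 2.59 and 0.927 with DMSO and 5.62, 4.06, 6.12 and 5.90 with sorafenib at 7 days. With 23 counts in the sorafenib 7-day group and 5 in the DMSO 7-day group it was called higher (log2 fold change 2.12 ± 0.63 SE, edgeR FDR 0.00737; 2.87 without DMSO 7-day replicate 3), and at 48 hours the ratio of 4 counts to 2 was 2.61 (95% interval of counting error 0.374 to 28.8).

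Isg15, a ubiquitin-like protein that is attached to other proteins and also secreted, gave one of the clearest patterns. Its libraries held 8.80, 6.94, 7.15 and 15.6 with DMSO and 9.82, 3.02, 10.5 and 7.95 with sorafenib at 48 hours. For Isg15, 7 days gave 2.16, 4.28, 3.45 and 6.49 with DMSO and 86.6, 95.8, 96.2 and 79.7 with sorafenib. The 4 sorafenib 7-day libraries lay at 79.7 or more, and no other library passed 15.6. The remaining groups overlapped except that DMSO was lower at 7 days than at 48 hours (log2 fold change −1.20 ± 0.39 SE, edgeR FDR 0.0139). The increase with sorafenib at 7 days was 21.0-fold (log2 fold change 4.39 ± 0.25 SE, edgeR FDR 6.61e-12), while sorafenib and DMSO were not told apart at 48 hours (log2 fold change −0.25 ± 0.36 SE, edgeR FDR 0.583). Isg15 shares 243 of its 782 exon bases with a gene on the opposite strand. Usp18, the protease that removes Isg15 from proteins and also dampens the type I receptor, had 2.93, 3.47, 1.02 and 1.73 with DMSO and 0, 0, 0.952 and 0 with sorafenib at 48 hours. At 7 days, 0, 3.43, 0 and 0.927 were found with DMSO and 15.8, 6.50, 9.62 and 11.8 with sorafenib. No library outside the sorafenib 7-day group held more than 4 counts. Usp18 rose 8.49-fold at 7 days (log2 fold change 3.09 ± 0.62 SE, edgeR FDR 0.000233; 4.62 on the log2 scale without DMSO 7-day replicate 2, which held 4 of the 5 counts of its group). At 48 hours 1 count stood against 10 with DMSO, a ratio of 0.13 (95% interval of counting error 0.00301 to 0.917) that was not called (edgeR FDR 0.0598) with libraries that did not overlap.

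The ligases of the group changed little. Trim25, which ubiquitinates the RNA sensor RIG-I and conjugates Isg15, had the highest counts of all members, 937, 918, 886 and 925 with DMSO and 1114, 1145, 1108 and 1037 with sorafenib at 48 hours. Trim25 reached 866, 844, 855 and 849 with DMSO and 1028, 936, 966 and 967 with sorafenib in the 7-day groups. It was higher with sorafenib at both times without overlap, by 1.20-fold at 48 hours (log2 fold change 0.26 ± 0.04 SE, edgeR FDR 1.27e-05) and 1.14-fold at 7 days (log2 fold change 0.19 ± 0.04 SE, edgeR FDR 0.000418). Dtx3l, a ubiquitin ligase that acts in a pair with Parp9, ranged from 25.1 to 27.8 with DMSO and 11.4 to 18.1 with sorafenib at 48 hours and was lower there (log2 fold change −0.73 ± 0.22 SE, edgeR FDR 0.00815; −0.79 without the library with the lowered region, FDR 0.00956). At 7 days it ranged from 28.3 to 36.2 with DMSO and from 19.7 to 37.1 with sorafenib, with overlap (log2 fold change −0.30 ± 0.18 SE, edgeR FDR 0.16).

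The 3 members of the PARP family, enzymes that transfer ADP-ribose, each behaved differently. Parp12, which attaches single ADP-ribose units, had 86, 102, 98 and 105 with DMSO and 326, 351, 286 and 270.3 with sorafenib at 48 hours. Parp12 stood at 325, 310.1, 329 and 283 with DMSO and 419.6, 422, 403 and 414 with sorafenib at 7 days. Sorafenib libraries were above DMSO at both times, and the DMSO level itself rose 3.17-fold between 48 hours and 7 days (log2 fold change 1.67 ± 0.09 SE, edgeR FDR 4.95e-12). The increase with sorafenib was 3.11-fold at 48 hours (log2 fold change 1.64 ± 0.09 SE, edgeR FDR 3.95e-12) and 1.33-fold at 7 days (log2 fold change 0.41 ± 0.07 SE, edgeR FDR 6.37e-05), a difference that was called (log2 fold change −1.23 ± 0.12 SE, edgeR FDR 6.12e-08). Parp14, a large enzyme with macrodomains, rose from 5.41, 2.57, 6.04 and 4.64 with DMSO to 38.2, 21.1, 15.7 and 17.7 with sorafenib at 7 days. The 7-day groups did not overlap (log2 fold change 2.27 ± 0.49 SE, edgeR FDR 0.000471), and at 48 hours all libraries lay between 0 and 5.61 (log2 fold change −0.08 ± 1.04 SE, edgeR FDR 0.959, −0.08 without the lowered library). Parp9, the partner of Dtx3l, ranged from 4.54 to 41.5 at 48 hours and from 24.5 to 60.5 at 7 days, and sorafenib overlapped with DMSO at both times (log2 fold change −0.76 ± 0.32 SE, edgeR FDR 0.0529 and log2 fold change −0.55 ± 0.24 SE, edgeR FDR 0.0567). The value of 4.54 came from the lowered library, without which the 48-hour log2 fold change was −0.50 (edgeR FDR 0.0989). Several alternatives called Parp9 lower, 9 of 24 at 48 hours and 8 of 24 at 7 days, and it shares 458 exon bases with Dtx3l on the opposite strand, so that without a stated strand setting the reads of the 2 genes are not fully separate.

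In the 2-5A synthetase family, which makes the messenger that activates the nuclease RNase L, Oas1a, Oas2 and Oas3 were all but silent. Oas1a had 2 counts over all 16 libraries, and Oas2 and Oas3 had 1 each, every one of them in the sorafenib 7-day group, which is under the floor and allows no fold. By contrast, both synthetase-like genes were measured. Oasl1, which in the mouse restrains the translation of Irf7, had 7.82, 5.21, 3.06 and 4.32 with DMSO and 0, 1.51, 7.61 and 3.41 with sorafenib at 48 hours. For Oasl1, 7 days gave 6.49, 4.28, 0.863 and 1.85 with DMSO and 87.7, 84.5, 77.8 and 82.6 with sorafenib. Its sorafenib 7-day libraries lay close together, and no other library passed 7.82. This was a 24.7-fold increase (log2 fold change 4.63 ± 0.32 SE, edgeR FDR 1.22e-10) after no called difference at 48 hours (log2 fold change −0.48 ± 0.58 SE, edgeR FDR 0.512). Its promoter window, part of which is printed above, held neither element.

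Oasl2, a paralog that keeps synthetase activity, turned its direction, with 36.2, 39, 23.5 and 23.3 with DMSO and 7.02, 7.56, 12.4 and 5.68 with sorafenib at 48 hours. At 7 days, 19.5, 17.1, 24.2 and 22.3 were found with DMSO and 42.7, 31.7, 61.2 and 39.4 with sorafenib. At 48 hours all sorafenib libraries lay under all DMSO libraries, and at 7 days all lay above. Oasl2 fell to 0.279 of the DMSO level at 48 hours (log2 fold change −1.84 ± 0.32 SE, edgeR FDR 5.36e-05) and rose 2.10-fold at 7 days (log2 fold change 1.07 ± 0.23 SE, edgeR FDR 0.000576), and the difference between both responses was called (log2 fold change 2.91 ± 0.40 SE, edgeR FDR 6.64e-06). Oasl1 and Oasl2 are neighbours on chromosome 5 (chr5:115061294-115075974 and chr5:115034997-115050295), and reads that fit both could have been split or dropped in the counting.

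The IFIT genes, which encode RNA-binding proteins that block the translation of viral RNA, lie side by side on chromosome 19 within the lowered region of the sorafenib 48-hour replicate 2 library. Ifit1 had 5.87, 6.94, 8.17 and 5.18 with DMSO and 4.21, 4.54, 13.3 and 6.81 with sorafenib at 48 hours. Ifit1 reached 7.57, 2.57, 13.8 and 13 with DMSO and 153, 122, 123 and 128 with sorafenib in the 7-day groups. Only the sorafenib 7-day libraries stood out, at 122 or more where no other library passed 13.8. The increase was 14-fold at 7 days (log2 fold change 3.81 ± 0.24 SE, edgeR FDR 2.58e-11) and no difference was called at 48 hours (log2 fold change 0.26 ± 0.47 SE, edgeR FDR 0.665; 0.41 without the lowered library, FDR 0.456).

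Ifit3 was lower in level, with 1.96, 4.34, 2.04 and 1.73 with DMSO and 12.6, 1.51, 10.5 and 10.2 with sorafenib at 48 hours. Ifit3 stood at 3.24, 0.857, 4.32 and 1.85 with DMSO and 34.9, 32.5, 28.9 and 54.1 with sorafenib at 7 days. Sorafenib libraries at 48 hours lay at 10.2 or more except the lowered library at 1.51, and the 7-day sorafenib libraries were above all others. Ifit3 was higher at 48 hours (log2 fold change 1.78 ± 0.55 SE, edgeR FDR 0.00927; 2.06 without the lowered library, FDR 0.00032) and 14.1-fold higher at 7 days (log2 fold change 3.81 ± 0.40 SE, edgeR FDR 7.53e-08), and the difference of the responses missed the threshold (log2 fold change 2.04 ± 0.80 SE, edgeR FDR 0.0541) but was called under 8 of 23 alternatives, among them leaving out the lowered library (1.76, FDR 0.0443). Ifit3b, a near-identical neighbour that can take part of the reads, was at 5.59 ± 2.30 with sorafenib at 7 days with no count with DMSO at 7 days, and was not called at 48 hours (edgeR FDR 0.8).

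Ifit2, by contrast, was abundant from the start, with 142, 155, 163 and 159 with DMSO and 637, 379.5, 739.5 and 678 with sorafenib at 48 hours. For Ifit2, 7 days gave 157, 194, 196 and 209 with DMSO and 819, 766, 808 and 748 with sorafenib. Sorafenib libraries were above the DMSO libraries at both times, and the lowest one at 48 hours was the lowered library. Its increase was 3.97-fold at 48 hours (log2 fold change 1.99 ± 0.14 SE, edgeR FDR 2.95e-10; 2.15 without the lowered library, FDR 1.13e-29) and 4.14-fold at 7 days (log2 fold change 2.05 ± 0.14 SE, edgeR FDR 6.73e-11). No difference between the 2 responses was called (log2 fold change 0.06 ± 0.20 SE, edgeR FDR 0.865), unlike for Ifit1 (log2 fold change 3.54 ± 0.57 SE, edgeR FDR 4.56e-05).

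Among the antiviral effectors, Isg20, an exonuclease that degrades single-stranded RNA, followed the course of Ifit2, with 36.2, 27.8, 25.5 and 40.6 with DMSO and 179.6, 157, 196 and 166 with sorafenib at 48 hours. At 7 days, 48.7, 64.2, 63 and 51 were found with DMSO and 308, 293, 292 and 288 with sorafenib. The 4 groups did not overlap with one another. It was 5.36-fold higher with sorafenib at 48 hours (log2 fold change 2.42 ± 0.13 SE, edgeR FDR 2.03e-12) and 5.16-fold at 7 days (log2 fold change 2.37 ± 0.11 SE, edgeR FDR 1.29e-13), on a DMSO level that rose 1.75-fold in between (log2 fold change 0.81 ± 0.15 SE, edgeR FDR 0.00014). Bst2, or tetherin, which holds budding virus at the cell surface, had 259, 269.8, 256 and 260.1 with DMSO and 529, 559.5, 603 and 598 with sorafenib at 48 hours. Bst2 reached 257, 238, 290.0 and 254 with DMSO and 408, 392, 407 and 450.5 with sorafenib in the 7-day groups. Sorafenib was above DMSO at both times, more so at 48 hours (2.20-fold, log2 fold change 1.14 ± 0.07 SE, edgeR FDR 8.11e-12) than at 7 days (1.59-fold, log2 fold change 0.67 ± 0.07 SE, edgeR FDR 2.78e-08), and this difference was called (log2 fold change −0.46 ± 0.09 SE, edgeR FDR 0.000496).

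Rsad2, or viperin, which makes a chain-terminating nucleotide, was all but absent before the late time, with 0, 0, 1.02 and 0 with DMSO and 1.40, 1.51, 0.952 and 0 with sorafenib at 48 hours. Rsad2 stood at 2.16, 0, 2.59 and 1.85 with DMSO and 42.7, 31.7, 34.1 and 40.3 with sorafenib at 7 days. The 3 groups other than sorafenib for 7 days held 1, 3 and 7 counts in total. Rsad2 rose 21.3-fold at 7 days (log2 fold change 4.41 ± 0.39 SE, edgeR FDR 4.72e-09), and no fold is given at 48 hours, where both groups were at or under the floor of 3 counts. Each DMSO 7-day library of Rsad2 also held at most 3 counts, so the size of its 7-day increase is imprecise. Its neighbour on chromosome 12, Cmpk2, a nucleotide kinase of mitochondria (chr12:26519203-26529836, next to Rsad2 at chr12:26492745-26506451), had 0.978, 2.60, 0 and 0 with DMSO and 0, 1.51, 0.952 and 0 with sorafenib at 48 hours. For Cmpk2, 7 days gave 0, 1.71, 0.863 and 0.927 with DMSO and 24.8, 19.5, 21 and 30.5 with sorafenib. The 4 sorafenib 7-day libraries were the only ones above 3, a 22.9-fold increase (log2 fold change 4.51 ± 0.51 SE, edgeR FDR 2.2e-07), while at 48 hours 2 counts stood against 4, a ratio of 0.652 (95% interval of counting error 0.059 to 4.55). No DMSO 7-day library held more than 2 counts of Cmpk2, so the size of its 7-day increase is imprecise as well.

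Samd9l, a restriction factor that also limits growth, went the other way, with 130.0, 156, 128 and 124 with DMSO and 98.2, 178, 92.3 and 128 with sorafenib at 48 hours. At 7 days, 234, 220.2, 212 and 227 were found with DMSO and 147, 136, 136 and 126 with sorafenib. The DMSO level was higher at 7 days than at 48 hours, and the sorafenib level at 7 days lay below all DMSO libraries of that time (0.610-fold, log2 fold change −0.71 ± 0.13 SE, edgeR FDR 7.89e-05). At 48 hours the groups overlapped (log2 fold change −0.15 ± 0.15 SE, edgeR FDR 0.423); without the sorafenib 48-hour replicate 2 library, which held the highest value, Samd9l was called lower there as well (−0.35, FDR 0.0114). Mx1 and Mx2, GTPases that trap viral capsids, had 1 and 6 counts in total, all in the sorafenib 7-day group, where each of the 4 libraries held at least 1 count of Mx2 and none held more than the floor of 3 counts.

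**Figure D4:**
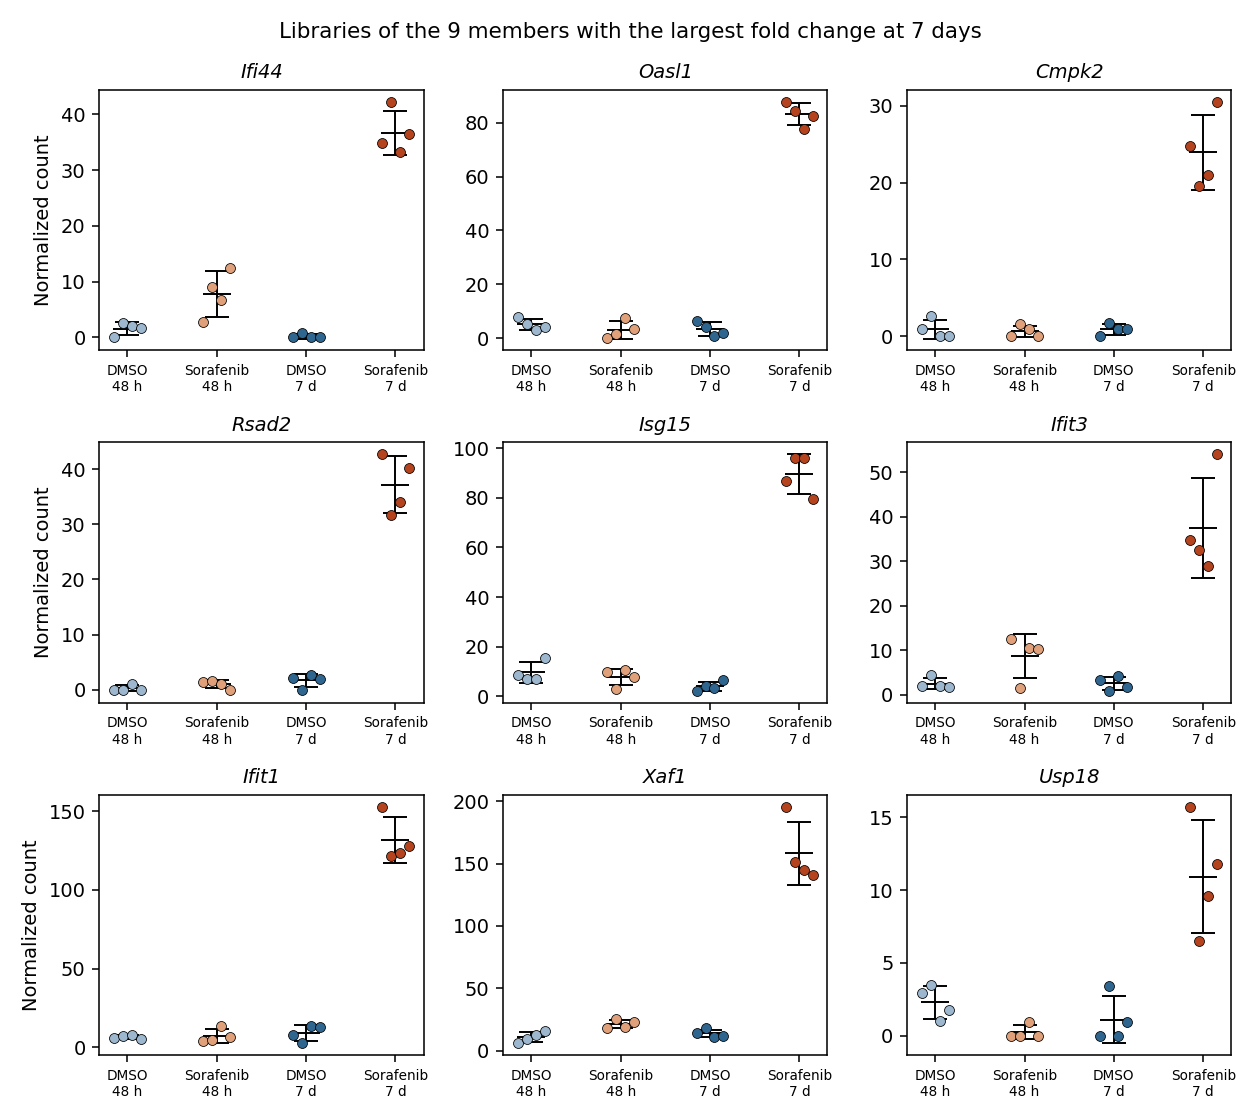
Normalized counts of the 9 members with the largest fitted increase at 7 days, 1 panel per gene, with points for libraries and bars for the mean and SD of 4 libraries in each group. In all 9 panels the sorafenib 7-day libraries lie above every other library, and Ifi44, Ifit3 and Xaf1 were called higher at 48 hours as well.

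The remaining 6 members have less defined or other roles. Ifi44, a cytoplasmic protein, had 0, 2.60, 2.04 and 1.73 with DMSO and 2.81, 9.07, 6.66 and 12.5 with sorafenib at 48 hours. Ifi44 reached 0, 0.857, 0 and 0 with DMSO and 34.9, 42.2, 33.2 and 36.4 with sorafenib in the 7-day groups. The sorafenib libraries were above DMSO at both times and the DMSO 7-day group held a single count. Ifi44 was 4.57-fold higher at 48 hours (log2 fold change 2.19 ± 0.55 SE, edgeR FDR 0.00205), and at 7 days the ratio of 158 counts to 1 was 160.0 (95% interval of counting error 28.3 to 6350; edgeR FDR 1.12e-09), so that its size is poorly fixed. Xaf1, which antagonizes the apoptosis inhibitor XIAP, had 5.87, 9.54, 12.2 and 15.6 with DMSO and 18.2, 25.7, 19 and 22.7 with sorafenib at 48 hours. Xaf1 stood at 14.1, 18, 11.2 and 12.1 with DMSO and 196, 151, 145 and 141 with sorafenib at 7 days. It was 1.94-fold higher at 48 hours (log2 fold change 0.95 ± 0.28 SE, edgeR FDR 0.00727) and 11.3-fold at 7 days (log2 fold change 3.49 ± 0.18 SE, edgeR FDR 1.06e-12), without overlap at either time, and the responses differed (log2 fold change 2.54 ± 0.37 SE, edgeR FDR 1.31e-05).

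Ifi27, a small membrane protein, rose in 2 steps, with 6.84, 13, 12.2 and 9.51 with DMSO and 14, 39.3, 25.7 and 22.7 with sorafenib at 48 hours. For Ifi27, 7 days gave 10.8, 14.6, 8.63 and 11.1 with DMSO and 79.9, 82.8, 81.3 and 72.8 with sorafenib. The sorafenib libraries lay above DMSO at both times, by 2.40-fold at 48 hours (log2 fold change 1.26 ± 0.27 SE, edgeR FDR 0.000551) and 6.95-fold at 7 days (log2 fold change 2.80 ± 0.21 SE, edgeR FDR 4.54e-10), with a called difference (log2 fold change 1.54 ± 0.37 SE, edgeR FDR 0.00253). Lgals3bp, a secreted glycoprotein that binds galectins, had 49.9, 52, 70.4 and 57.9 with DMSO and 108, 78.6, 72.3 and 102 with sorafenib at 48 hours. At 7 days, 36.8, 36, 31.9 and 38 were found with DMSO and 109, 95.8, 86.6 and 107 with sorafenib. It was 1.56-fold higher at 48 hours (log2 fold change 0.64 ± 0.14 SE, edgeR FDR 0.00075) and 2.78-fold at 7 days (log2 fold change 1.48 ± 0.15 SE, edgeR FDR 3.87e-08); its level with sorafenib was not told apart between the times (log2 fold change 0.14 ± 0.13 SE, edgeR FDR 0.425), and its level with DMSO fell (log2 fold change −0.69 ± 0.16 SE, edgeR FDR 0.00138).

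Ifi35, a partner of Nmi, had 117, 134, 112 and 120.1 with DMSO and 208, 203, 226 and 160.1 with sorafenib at 48 hours. Ifi35 reached 183, 169, 178 and 212 with DMSO and 300.3, 294, 283 and 313 with sorafenib in the 7-day groups. Sorafenib was above DMSO by 1.64-fold at 48 hours (log2 fold change 0.72 ± 0.10 SE, edgeR FDR 4.93e-06) and 1.61-fold at 7 days (log2 fold change 0.68 ± 0.09 SE, edgeR FDR 1.44e-06), and the 2 responses were not told apart (log2 fold change −0.03 ± 0.14 SE, edgeR FDR 0.886). Its exons share 935 bases with genes on the opposite strand, Vat1 among them. Rtp4, a chaperone of membrane receptors that also binds RNA, had 84.1, 64.2, 71.5 and 71.7 with DMSO and 36.5, 19.7, 38.1 and 36.3 with sorafenib at 48 hours. Rtp4 stood at 29.2, 29.1, 23.3 and 22.3 with DMSO and 30.4, 39.8, 26.2 and 40.3 with sorafenib at 7 days. It fell to 0.460 of DMSO at 48 hours without overlap (log2 fold change −1.12 ± 0.17 SE, edgeR FDR 1.51e-05; −0.97 without the lowered library, FDR 4.02e-06) and overlapped at 7 days (log2 fold change 0.40 ± 0.20 SE, edgeR FDR 0.0883), on a DMSO level that itself fell to 0.357 (log2 fold change −1.49 ± 0.17 SE, edgeR FDR 4.55e-07). Rtp4 shares 1235 exon bases with other genes, Gm45338 on the same strand among them.

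Per kilobase of annotated exon, a rough scale for comparing genes, Bst2 was highest in every group, at 215 ± 4.86 normalized counts per kilobase with DMSO for 48 hours and 341 ± 20.7 with sorafenib for 7 days. The length joins the exons of all annotated transcripts of a gene, whether or not they were expressed, so ranks are approximate. Trim25 (159 ± 3.79) and Irf1 (144 ± 2) followed with DMSO for 48 hours. With sorafenib for 7 days the order behind Trim25 (169 ± 6.70) was Ifit2 (133 ± 5.74), Irf1 (127 ± 7.07), Isg20 (116 ± 3.43) and Isg15 (115 ± 10.2), of which Ifit2 and Irf1, and likewise Isg20 and Isg15, differed by no more than their spread. Isg15 had been at 5.24 ± 2.33 with DMSO for 7 days, at rank 17 of 35. Rsad2, Ifi44, Cmpk2, Usp18, Parp14 and Zbp1 stayed at 8.58 or less even with sorafenib for 7 days.

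Vehicle cells also differed between 48 hours and 7 days. Each time has its own libraries, and the labels do not say whether these were cultured or prepared together. Time and batch therefore cannot be told apart, which also holds for differences between the responses. Between 48 hours and 7 days of DMSO, 11 of the 30 members were called, 6 higher and 5 lower, where 49.4% of all genes were called (23.9% higher and 25.5% lower), with a median log2 fold change of 0.06. Changes of at least 2-fold were called for 1 higher and 2 lower members, against 4.26% and 6.71% of all genes. The largest were the increase of Parp12 (1.67) and the decreases of Rtp4 (−1.49) and Isg15 (−1.20), all on the log2 scale. Between 48 hours and 7 days of sorafenib, 27 were called, 24 higher and 3 lower, where 39.7% of all genes were called (17.5% higher and 22.3% lower), with a median log2 fold change of 1.34. Of these, 16 rose and 0 fell by at least 2-fold, against 4.77% and 3.68% of all genes. Oasl1 (4.48) and Ifit1 (4.04) had large log2 increases. For Rsad2, Cmpk2 and Usp18, with 3, 2 and 1 counts with sorafenib for 48 hours, the ratios of counts were 40.4 (95% interval of counting error 13.6 to 198), 39 (10.5 to 326) and 34.7 (5.93 to 1400), so that their order is not fixed. The 3 that fell were Bst2 (−0.47), Stat2 (−0.20) and Trim25 (−0.18). These comparisons share libraries with those of sorafenib against DMSO.

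Genes that act before the members were looked at next, beginning with the interferons themselves. Of 21 interferon genes in the table, covering Ifnb1, the Ifna genes, Ifng, the lambda genes and others, none reached 10 counts. Over all 16 libraries they held 16 counts, 7 on Ifnab, 6 on Ifnz and 3 on Ifne, with at most 2 on any of them in a library. Ifnb1 and Ifng had no count, which allows up to 3 counts per library, or 2.44 to 4.54 normalized counts. At this depth no interferon transcript was detectable above the floor in any group.

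The receptors and their kinases were expressed in all groups. Of 9 genes, 4 were higher and 1 lower with sorafenib at 48 hours, and 6 higher and 1 lower at 7 days, all by less than 2-fold, with a median log2 fold change of 0.15 and 0.43. Among all tested genes, 26.9% were higher and 27.7% lower at 48 hours, and 28.9% and 27.9% at 7 days, with medians of −0.05 and 0.02. Ifnar1, a chain of the type I receptor, was at 2428 ± 63.2 with DMSO and 2276 ± 62.3 with sorafenib at 7 days and was called at neither time. Ifnar2, the other chain, fell from 1340.0 ± 63.1 to 852 ± 19.2 at 7 days (log2 fold change −0.65 ± 0.09 SE, edgeR FDR 1.97e-06) and was also lower at 48 hours (−0.42 on the log2 scale). For the type II receptor, Ifngr1 rose from 476 ± 27 to 786 ± 19.5 (log2 fold change 0.72 ± 0.05 SE, edgeR FDR 7.06e-11), while Ifngr2 was not called. Ifnar1, Ifnar2, Ifngr2, Il10rb and Jak2 lie in the lowered region of the sorafenib 48-hour replicate 2 library. Without that library, the 48-hour log2 fold change was −0.30 for Ifnar2, 0.85 for Il10rb and 0.92 for Jak2, each still called, and that of Ifngr2 became a call (0.26, edgeR FDR 3.74e-10).

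Among the kinases, Jak2 rose from 1032 ± 28.2 to 1939 ± 58.8 at 7 days (log2 fold change 0.91 ± 0.12 SE, edgeR FDR 2.34e-06), Jak1 from 3663 ± 33.5 to 4366 ± 80.7 (log2 fold change 0.25 ± 0.03 SE, edgeR FDR 2.62e-06) and Tyk2 from 442 ± 32.8 to 613 ± 25 (log2 fold change 0.47 ± 0.06 SE, edgeR FDR 3.38e-07). Jak1 and Jak2 were higher at 48 hours too, and Tyk2 was not called there. The lambda receptor chains Ifnlr1 (0.65) and Il10rb (0.43) also rose at 7 days on the log2 scale.

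Of further factors of the IRF family, none was called higher at 7 days by edgeR. Irf5, an activator of inflammatory genes, fell from 760.3 ± 12.7 to 147 ± 19.7 at 48 hours and from 716 ± 17.5 to 74.3 ± 10.4 at 7 days (log2 fold change −3.28 ± 0.08 SE, edgeR FDR 7.94e-18). Irf2, which opposes Irf1, was slightly higher at 48 hours (0.17) and lower at 7 days (−0.25) on the log2 scale. Irf3, the factor activated by the sensors, was not called at either time, at 905 ± 19.8 and 880.0 ± 55 at 7 days, and Irf8 was close to 0.

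Of 11 inhibitors of the signal, 2 were higher and 5 lower at 48 hours, and 3 higher and 5 lower at 7 days. The shares over all tested genes were 26.9% higher and 27.7% lower at 48 hours, and 28.9% and 27.9% at 7 days. Ptpn2, in the lowered region, became a 48-hour call without the lowered library (log2 fold change 0.11, edgeR FDR 0.0175). Socs3, which blocks Jak kinases, fell from 916 ± 13.4 to 219.6 ± 10.9 at 7 days (log2 fold change −2.06 ± 0.08 SE, edgeR FDR 1.99e-14), and Cish, of the same family, fell from 128 ± 15.4 to 39.2 ± 4.72 (log2 fold change −1.70 ± 0.13 SE, edgeR FDR 4.08e-10). Both were lower at 48 hours too (log2 fold changes −1.60 and −1.07). Socs1, the member of the family most tied to interferon, was not called, at 54 ± 7.26 with DMSO and 49.9 ± 1.69 with sorafenib at 7 days. Ptpn6, a phosphatase found chiefly in blood cells, rose from 12.5 ± 3.63 to 25.1 ± 5.45 (log2 fold change 0.98 ± 0.25 SE, edgeR FDR 0.00224).

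Of 16 tested genes that sense nucleic acid and pass the signal on, 11 were higher and 2 lower at 48 hours, and 9 higher and 1 lower at 7 days. Over all tested genes, 26.9% were higher and 27.7% lower at 48 hours, and 28.9% and 27.9% at 7 days. Eif2ak2, in the lowered region, became a 48-hour call without the lowered library (log2 fold change 0.27, edgeR FDR 1.61e-06). Ddx58, or RIG-I, a sensor of RNA ends, rose from 149.6 ± 8.32 to 269.6 ± 15.1 at 48 hours (log2 fold change 0.85 ± 0.07 SE, edgeR FDR 1.13e-09) and from 229.8 ± 9.84 to 432 ± 17.9 at 7 days (log2 fold change 0.91 ± 0.06 SE, edgeR FDR 4.26e-11). Tlr3, the endosomal receptor for double-stranded RNA, was at 8.88 ± 3.22 with DMSO and 39.4 ± 4.45 with sorafenib at 7 days (log2 fold change 2.12 ± 0.25 SE, edgeR FDR 3.98e-07) and was also higher at 48 hours (1.61 on the log2 scale). Zc3hav1, an RNA-binding antiviral protein, rose at both times (log2 fold changes 1.45 and 1.32). In the DNA-sensing branch, Cgas rose from 124 ± 17.7 to 182 ± 12.4 at 7 days (log2 fold change 0.56 ± 0.10 SE, edgeR FDR 0.000103), whereas its adaptor Sting1 fell from 407 ± 30 to 189 ± 9.02 (log2 fold change −1.11 ± 0.08 SE, edgeR FDR 3.59e-10) and was lower at 48 hours too (−1.30; −1.23 without the lowered library). Adar, an RNA-editing enzyme that also limits RNA sensing, was higher at both times (0.91 and 0.86 on the log2 scale), and Trex1 had no count.

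**Figure D5:**
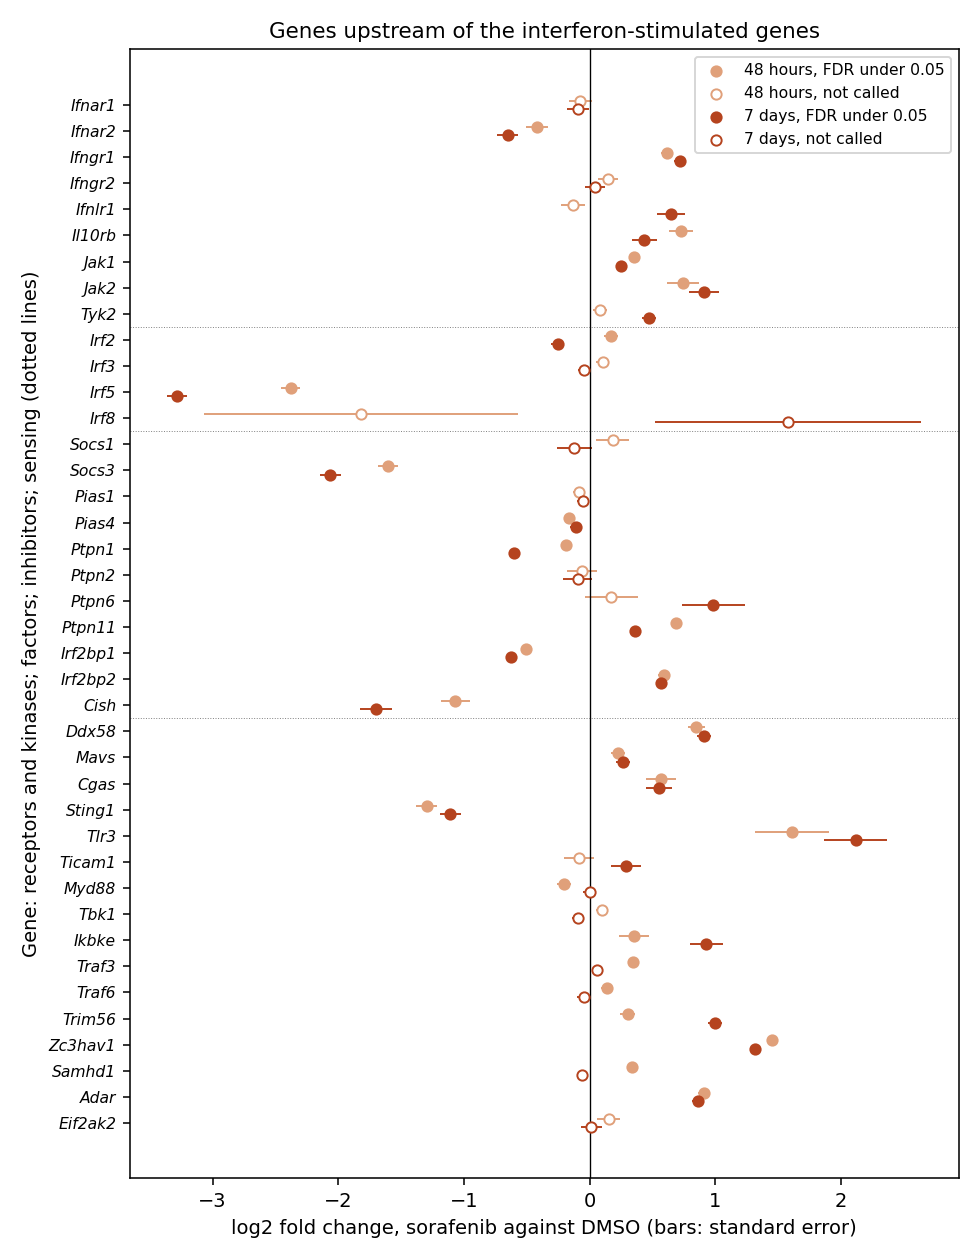
Log2 fold change of sorafenib against DMSO at 48 hours (light) and 7 days (dark) for receptors and kinases, further IRF factors, inhibitors and sensing genes. Bars give the SE derived from the F of the test, and filled points passed an FDR under 0.05. Irf5 and Socs3 lie furthest left among the filled points at both times, and Tlr3 and Zc3hav1 right of 1.

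A second list of 71 other genes known as interferon targets was read beside the members, of which 70 were in the table and 57 could be tested. At 48 hours, 15 were higher and 16 lower, where 26.9% and 27.7% of all genes were. Without the lowered library, Apol9a (edgeR FDR 0.0541) and Ifit1bl1 (edgeR FDR 0.0512) were no longer called at 48 hours. At 7 days 31 were higher and 14 lower, against 28.9% and 27.9% of all genes. By at least 2-fold, 25 were higher and 8 lower at 7 days, against 12.1% and 8.43% of all genes. At 48 hours 9 were higher and 8 lower by that size, against 8.83% and 9.22%. Some tested genes, among them Ifi203, Mndal, Ifit3b and Trim30a, reached 10 counts only through the sorafenib 7-day group. Their entry into the test thus depended on the group in which they were high, and the counts and medians of this list include them. The median log2 fold change of the list at 7 days was 0.96, where that of all tested genes was 0.02. The list median was also 0.96 with the 3 genes that had no count in a group placed at the bound that the floor allows. The chemokines Ccl5 and Cxcl10 rose from 2.57 ± 0.909 to 117 ± 11.6 (log2 fold change 5.47 ± 0.30 SE, edgeR FDR 2.77e-12) and from 28.1 ± 3.38 to 251 ± 9.59 (log2 fold change 3.15 ± 0.11 SE, edgeR FDR 1.79e-15), and neither was called at 48 hours. Of the Ifi200 family of DNA-binding proteins, Mndal rose from 0.428 ± 0.857 to 28.2 ± 4.60 and Ifi211 from 12.3 ± 1.91 to 66.3 ± 6.62, and Ifi203 was at 7.40 ± 4.85 with sorafenib for 7 days with no count in any other group.

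The other increases at 7 days of at least 2-fold held effectors of several kinds. The ligase Herc6, which conjugates Isg15 in the mouse, rose from 23 ± 2.83 to 148 ± 22.1 (log2 fold change 2.68 ± 0.16 SE, edgeR FDR 9.14e-12) and Uba7, which activates Isg15, from 13.2 ± 3.87 to 45.4 ± 5.74 (log2 fold change 1.75 ± 0.21 SE, edgeR FDR 4.56e-07), whereas Ube2l6, the conjugating enzyme between both, fell from 177 ± 11.2 to 58.3 ± 9.59 (log2 fold change −1.61 ± 0.13 SE, edgeR FDR 1.62e-09). Of the interferon-induced GTPases, Irgm1 (log2 fold change 1.80), Ifi47 (2.32), Igtp (1.77), Irgm2 (1.15), Gbp3 (1.77) and Gbp7 (2.72) rose at 7 days. Gbp3 had fallen at 48 hours (−2.02), and Gbp2 fell at 48 hours (−3.88) and at 7 days (−0.76). Gbp5, with no count with sorafenib for 48 hours, was at 3.96 ± 0.886 with sorafenib for 7 days and 0.700 ± 0.478 with DMSO. Apol9a (3.15), Apol9b (3.40), Ddx60 (2.68), Tor3a (2.11), Cd274 (1.83), which encodes the checkpoint ligand PD-L1, Tdrd7 (1.47), Trim21 (1.42) and Helz2 (1.34) rose as well. Trim34a and Trim30a were called higher at low levels, 7.08 ± 2.33 and 3.31 ± 2.64 with sorafenib for 7 days.

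Not all known targets rose. Ifitm1, which keeps viruses from fusing with membranes, fell from 209.8 ± 14.5 to 5.29 ± 2.67 at 48 hours (log2 fold change −5.32 ± 0.23 SE, edgeR FDR 7.08e-14) and from 40.9 ± 9.70 to 1.26 ± 1.46 at 7 days (log2 fold change −4.97 ± 0.39 SE, edgeR FDR 8.06e-10). Ly6e, a surface protein of the same broad use, fell from 14890.0 ± 745 to 2300.0 ± 271 at 48 hours and from 3415 ± 241 to 1378 ± 76.2 at 7 days (log2 fold change −1.31 ± 0.07 SE, edgeR FDR 1.69e-12). Ly6e lies in the lowered region, and its 48-hour log2 fold change was −2.69 with the lowered library and −2.63 without it. Ch25h, which makes an antiviral oxysterol, was at 82.8 ± 12 with DMSO and 4.21 ± 2.25 with sorafenib at 7 days (log2 fold change −4.25 ± 0.34 SE, edgeR FDR 1.36e-09). Sp100 (−1.87), Slfn9 (−1.94) and Epsti1 (−1.57) also fell by more than 2-fold at 7 days, and the latter had no count with sorafenib for 48 hours. Ifi27l2a, a paralog of Ifi27 whose exons overlap those of Ifi27 on the opposite strand, had no count with sorafenib at 7 days against 2.62 ± 1.56 with DMSO.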

How the data were processed

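The authors made 16 libraries with a stranded mRNA kit, per the labels. Reads were aligned to GRCm39 with STAR 2.7.1a and counted per gene with featureCounts 2.0.6, per the submitters' processing notes. The strand setting and annotation are not given in the sources used here. The deposited values are raw counts for 40840 genes, neither normalized nor pooled. All 16 columns of counts were used.

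Genes under 10 counts in total were removed (20444 left), the filter of the study's methods. The test was run with edgeR 4.0.16 under R 4.3.3 (TMM, quasi-likelihood test, 1 coefficient per group, no block, Benjamini-Hochberg FDR under 0.05). Single genes also had exact permutation tests on log2 of the normalized count plus 1. Intervals of ratios are exact at 95% and, like the floor of 3 counts, cover counting error only. Replicates differed by more than counting error (lowest chi-square per gene 1.47 over 24 pairs). In the DMSO 7-day group, pairs with replicate 4 gave 37.6, 48.7 and 49.9, and the other pairs 1.73 to 2.65. Within DMSO at 48 hours, replicates 1 and 4 gave 13.2 to 29.8 against replicates 2 and 3. The pairs 1 and 4 and 2 and 3 gave 3.93 and 4.51. Sorafenib 48-hour replicate 2 gave 24.8 to 28.2. The cause of these splits was not tested. The fit was tried on simulated data with a fixed spread, in which only genes with ample counts were changed. Members with few counts were therefore not covered.

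The 35 members and the lists (interferons, receptors and kinases, IRF factors, inhibitors, sensing genes, other targets, markers of hepatoblasts, immune cells, fibroblasts and endothelium) were chosen with earlier results of these data known; some genes of these lists are not reported here. Values per library are given for the 12 members with the highest mean and those called with a 2-fold or larger difference between sorafenib and DMSO. Genes of other lists are named where called at that size or as receptor, kinase, ligand or factor. Promoters are from RefSeq (GRCm38.p6), exons from the GRCm39 annotation. Genes with near-identical copies or overlapping exons are uncertain to that extent.

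Alternatives were DESeq2 1.42.0 with its Wald test, DESeq2's size factors or total counts in place of TMM, limma 3.58.1 voom with sample weights, no filter, a minimum of 10 counts per library, an added 2-fold threshold, only the 8 libraries compared, a replicate block, an offset for the lowered region, and each library left out in turn.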

Additional observations from a re-analysis of the deposited data

Results flagged for a closer look

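The response to sorafenib at 7 days minus that at 48 hours differed from 0 for 18 members in the interaction test of edgeR (FDR under 0.05), where 36.8% of all genes were called. On the log2 scale, the responses that were higher at 7 days differed by 5.61 for Usp18, 5.11 for Oasl1, 5.04 for Cmpk2, 4.65 for Isg15, 4.51 for Ifi44, 3.54 for Ifit1, 2.91 for Oasl2, 2.54 for Xaf1, 2.32 for Irf7, 1.56 for Ifih1, 1.54 for Ifi27, 1.52 for Rtp4, 0.83 for Lgals3bp, 0.75 for Dhx58 and 0.63 for Irf9. For 3 members the response was lower at 7 days, by −1.23 for Parp12, −0.57 for Samd9l and −0.46 for Bst2. The values of Usp18, Ifi44 and Cmpk2 involve groups with 1 to 5 counts in total, and without DMSO 7-day replicate 2 the differences of Usp18 and Ifi44 were 7.14 and 6.02. Without sorafenib 48-hour replicate 3 those of Usp18 and Oasl1 were 7.39 and 6.12. Without the DMSO 48-hour replicate 2 library the difference of Cmpk2 was 3.79 and no longer called (FDR 0.193).

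In 6 of the 120 groups of 4 libraries, 1 library stood apart from the other 3, which chance gives in about 1 of 20 groups. These were 4.34 normalized counts of Ifit3 in DMSO 48-hour replicate 2, 69.7 of Dhx58 in sorafenib 7-day replicate 1, 1.02 of Rsad2 in DMSO 48-hour replicate 3, 0.952 of Usp18 in sorafenib 48-hour replicate 3, 0.857 of Ifi44 in DMSO 7-day replicate 2 and 19.7 of Rtp4 in sorafenib 48-hour replicate 2. The values for Rsad2, Usp18 and Ifi44 are a single count beside libraries at 0, and that of Rtp4 lies in the lowered region of that library.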

How the results depend on the processing

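No called member, and no called gene of the other lists, changed direction in any of the 5 comparisons under any alternative. With at least 10 counts in every library only 15 members could be tested, and the calls numbered 13 at 7 days, 8 for the interaction and 11 for sorafenib at 7 days against 48 hours, with 45 for the other lists at 7 days. Of the 12158 genes tested under that filter, 9146, 6827 and 7168 were called in these 3 comparisons. With an added 2-fold threshold the member calls numbered 9 at 48 hours, 3 for DMSO over time, 16 for sorafenib over time, and 23 and 39 for the other lists at 48 hours and 7 days. Of all genes, 8.83% rose and 9.22% fell by that size at 48 hours, and 12.1% and 8.43% at 7 days. For DMSO over time the shares were 4.26% and 6.71%, and for sorafenib over time 4.77% and 3.68%. Leaving out each library in turn gave 16 to 18 members at 48 hours, 27 to 29 at 7 days, 17 to 20 for the interaction, 10 to 13 and 25 to 27 for DMSO and sorafenib over time, and 55 to 61 and 69 to 79 for the other lists. Of the 20203 to 20364 genes tested in these fits, 10609 to 11608 were called at 48 hours and 10981 to 12590 at 7 days. The interaction was called for 7073 to 8761 of them, DMSO over time for 9419 to 11242 and sorafenib over time for 7355 to 9047. Same-numbered libraries deviated from their group means with correlations that averaged −0.008 for the 48-hour groups and 0.072 for the 7-day groups, and 2 of 8 DMSO libraries correlated best with their own number, so the numbers were not taken to pair libraries. With the replicate block, 17, 27 and 18 members were called at 48 hours, at 7 days and for the interaction. The same fit called 10644, 11027 and 6987 of all 20444 genes. Total counts in place of TMM moved the median of all genes at 48 hours from −0.05 to −0.12. With DESeq2, 18, 27 and 19 members were called at 48 hours, at 7 days and for the interaction, and 11024, 11366 and 7634 of all 20444 genes.

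Single calls changed as follows. Samd9l lost its interaction with total counts (−0.47) and without DMSO 48-hour replicate 1, 3 or 4, sorafenib 48-hour replicate 4 or sorafenib 7-day replicate 4 (−0.50 to −0.53). At 48 hours, Irf7 was called lower under 9 alternatives (−1.45 without sorafenib 48-hour replicate 2) and Usp18 under 6 (−4.31 without sorafenib 48-hour replicate 3). Dtx3l was called lower at 7 days without sorafenib 7-day replicate 1 (−0.46), Rtp4 higher without sorafenib 7-day replicate 3 (0.52), and the interaction of Parp14 without sorafenib 48-hour replicate 1 (4.07). Ifit3 gained its interaction under 8 of 23 alternatives (1.76 to 2.44). With limma voom, Rsad2 also had a called interaction (3.61). The cause was not tested. Depth limits the 5 untested members and those with fewer than 10 counts in a group, whose folds are imprecise.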
